A study of Mus musculus with 24 samples.

Results

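Hind limb digit tips of C57BL/6 mice, an inbred laboratory strain, were compared at 14 days after distal amputation and at 12 days after proximal amputation. Each group had 4 RNA-seq libraries, so 8 of the 24 libraries of the series entered the comparison, and all 15055 genes of the deposited table were measured in each. Mice of both groups were 10 to 12 weeks old, per the labels, and the labels give no altered gene and no agent beyond the amputation that all groups of the series share. The pieces of tissue held bone, cartilage, marrow, dermis and epidermis together, and total RNA was depleted of ribosomal RNA. The other 16 libraries were 4 each of distal 12 days, distal 21 days, proximal 14 days and proximal 21 days. No unamputated digit was analysed here. The labels do not say that libraries of a group came from separate mice, so p-values measure the spread between libraries, part of which may be technical.

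A mouse digit tip cut distally, through the end of the terminal phalanx, grows back its bone, nail and skin through a blastema, a mound of dividing connective tissue cells under a new epidermis. A cut made further proximally does not restore the tip and heals with fibrous tissue. The nail matrix is the epithelium that lays down the nail plate from hard keratins and keratin-associated proteins, and new bone forms directly from osteoblasts. These statements are background and were not measured here.

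The 2 groups were chosen by their values for connective tissue matrix genes, which earlier results of these data gave as high in both. Those genes are therefore described here without a test of their own, but they stay in the counts of called genes over the whole table. Level and day differ together between the groups and cannot be told apart in this comparison alone. A crossed comparison with the days exchanged, distal 12 days against proximal 14 days, and the comparison of distal 21 days with proximal 21 days use none of the same libraries and are given beside it. Deposited values are whole numbers that had been brought to a common scale, with upper quartiles of 902.5 to 930.5 in the 24 libraries, and the read depth behind them is unknown. Differences are given on the scale of log2(value + 1), distal minus proximal, and a gene was called where limma's moderated test gave a Benjamini-Hochberg adjusted p under 0.05 over all 15055 genes. In bulk tissue, fewer cells of a type and less RNA per cell cannot be told apart.

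Markers of each labelled tissue were present in all 8 libraries. The lowest values were 17 for Bglap, the bone protein osteocalcin, in a proximal 12-day library, 38 for Col2a1, the collagen of cartilage, in a distal 14-day library, and 19 for Hba-a1, an alpha globin, in a proximal 12-day library. On the second principal component of the 24 libraries, which held 21.8% of the variance, proximal 12-day replicate 1 lay at -25.0 and the other 3 proximal 12-day libraries between -46.9 and -43.9. That library stood apart from its group in the nail genes below, and counts are therefore also given without it.

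Matrix genes, which chose the groups, differed between them in both directions, and the 5 measured bone matrix genes were all higher in distal 14-day means. Over 89 measured matrix genes of 92 listed, the mean log2 deviation from the 24-library mean was 0.65 in distal 14-day libraries (0.57 to 0.70 in the 4 libraries) and 0.46 in proximal 12-day libraries (0.35 to 0.58). The proximal 14-day libraries, at 0.49 (0.29 to 0.65), were as high as the proximal 12-day ones, so 3 groups and not 2 had high matrix transcripts. The next group down was distal 12 days at -0.32, followed by distal 21 days at -0.53 and proximal 21 days at -0.76. Between distal 14 and proximal 12 days the median log2 difference of the 89 genes was 0.00, as it was over all 15055 genes, but single genes spread widely around it. It was positive for 45 of the 89, and it ran from -2.09 to 2.60 in cartilage matrix, from -1.43 to 0.67 in matricellular and elastic fibre genes and from 1.32 to 4.52 in bone matrix.

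**Figure D1:**
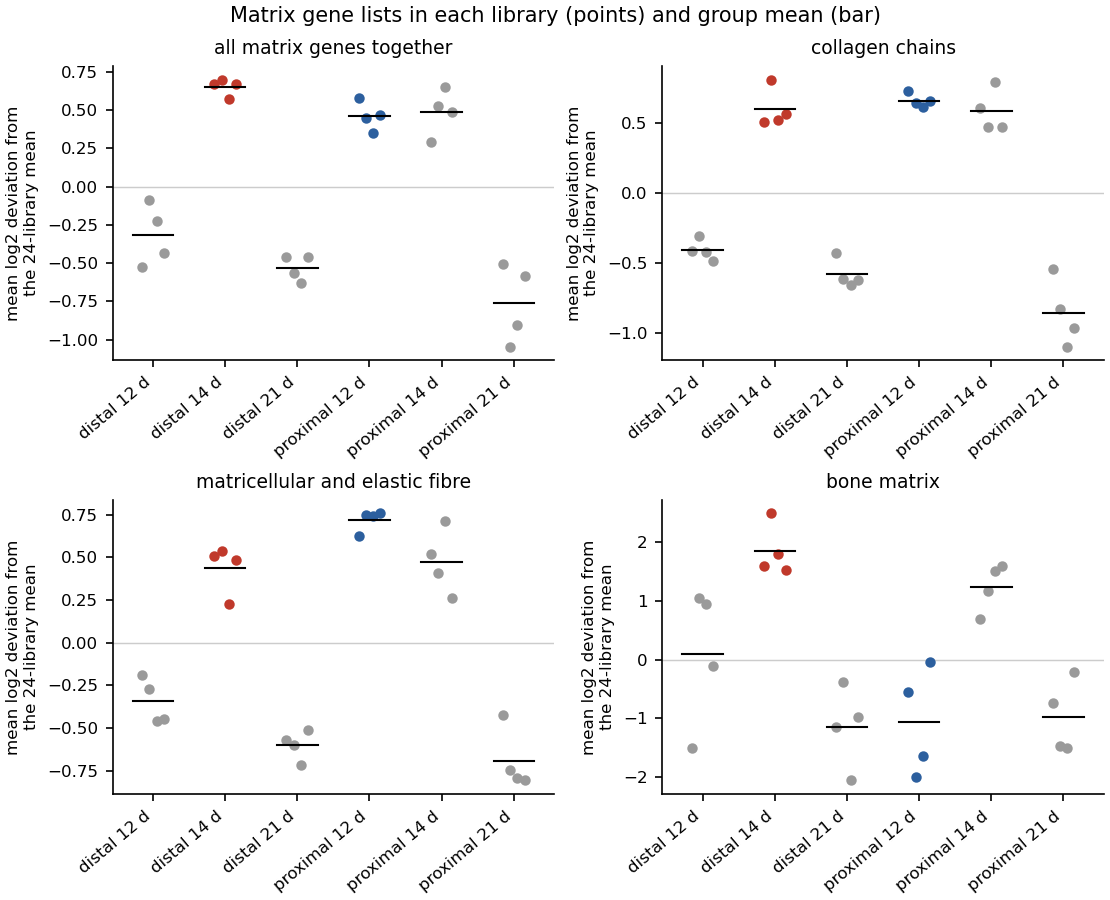
Mean log2 deviation of matrix gene lists from the 24-library mean (vertical axis) in each library (points) of the 6 groups (horizontal axis), with group means as bars. Distal 14 days (red), proximal 12 days (blue) and proximal 14 days were all high for all matrix genes together (0.65, 0.46 and 0.49), while bone matrix genes averaged 1.85 in distal 14-day, 1.24 in proximal 14-day and -1.06 in proximal 12-day libraries.

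Fibrillar collagens overlapped between the groups. Col1a1 had values of 243732, 497036, 388656 and 308280 in the distal 14-day libraries, against 311130, 188661, 195026 and 211320 in the proximal 12-day libraries. Col1a1 encodes the main collagen of bone, dermis and scar, and proximal 12-day replicate 1 exceeded the lowest distal 14-day library. Col3a1 had values of 139527, 207895, 144412 and 172817 in the distal 14-day libraries, against 210249, 216622, 199280 and 241452 in the proximal 12-day libraries. Col3a1, the collagen of loose and healing connective tissue, overlapped as well, since distal 14-day replicate 2 lay above proximal 12-day replicate 3. Col12a1, Acan, Comp, Tnc, Ogn, Fmod and Tnmd, which encode a fibril-associated collagen, aggrecan of cartilage, a cartilage and tendon glycoprotein, tenascin C, osteoglycin, fibromodulin and tenomodulin, also overlapped, with log2 differences from -0.50 for Comp to 0.11 for Ogn.

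Among the matrix genes fixed for description, 3 lay wholly lower in distal 14-day libraries. Postn had values of 26565, 39336, 28510 and 30496 in the distal 14-day libraries, against 50889, 39720, 42370 and 56214 in the proximal 12-day libraries. Periostin, a matricellular protein of periosteum and healing dermis, was separated by a narrow gap, between 39336 and 39720. Thbs2 had values of 6864, 8439, 6786 and 6519 in the distal 14-day libraries, against 9365, 10458, 11469 and 11316 in the proximal 12-day libraries. Loxl1 had values of 1563, 1460, 1326 and 1511 in the distal 14-day libraries, against 2547, 2335, 2342 and 2782 in the proximal 12-day libraries. Thrombospondin 2 and the elastin cross-linking enzyme lysyl oxidase-like 1 were each lower in every distal 14-day library, by log2 differences of -0.58 and -0.77. Over the 20 matricellular and elastic fibre genes the median difference was -0.28.

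Bone matrix had the highest median difference of the matrix lists. Bglap had values of 1740, 1432, 530 and 598 in the distal 14-day libraries, against 44, 24, 17 and 139 in the proximal 12-day libraries. Every distal 14-day value of osteocalcin was above every proximal 12-day value, and the log2 difference was 4.52. Ibsp had values of 6894, 21381, 15277 and 15421 in the distal 14-day libraries, against 10578, 1634, 4047 and 5685 in the proximal 12-day libraries. Bone sialoprotein overlapped, because proximal 12-day replicate 1 held more than distal 14-day replicate 1. The mean log2 deviation of the 5 measured bone matrix genes was 1.85 in distal 14-day libraries and -1.06 in proximal 12-day libraries, where it was close to the -1.14 of distal 21 days and the -0.98 of proximal 21 days. Proximal 14 days was high as well, at 1.24 (0.69 to 1.59), and distal 12 days lay at 0.09 (-1.51 to 1.04). The median difference was 3.08 for bone matrix and 0.39 for the 19 collagen processing and cross-linking genes, against -0.09 for the 15 collagen chains and -0.05 for the 10 small leucine-rich proteoglycans.

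Over the whole table, 3681 of 15055 genes (24.5%) were called between distal 14 and proximal 12 days, 1782 higher (11.8%) and 1899 lower (12.6%) in distal 14-day libraries. Of these, 426 were higher and 393 lower by over 2-fold on the log2(value + 1) scale. For 3909 genes (26%) the 4 values of one group all lay above those of the other. Genes named below by the size of their change were picked among called genes without overlap. Those named from the crossed comparisons had to meet this in both, so lack of overlap in such genes was set by the choice. Outside the matrix lists, 1756 genes were called higher and 1887 lower, 24.3% of 14966. Among the 15 pairs of groups, distal 14 and proximal 12 days ranked 13 by closeness, with a root mean square log2 distance of 0.555 between group means over all genes, whereas distal 14 and proximal 14 days were the closest pair at 0.314. Scaling each library to its table total in place of the deposited scale moved the split to 1074 higher and 2210 lower, and the share of higher calls to 32.7% from 48.4%. A single gene, Gm26917, made up 4.9 to 6.97% of the table total in distal 14-day and 3.39 to 4.82% in proximal 12-day libraries. Its part in that shift was not tested.

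The genes that rose most were those of the nail plate, and their promoters are shown first because 36 of 38 keratin-associated protein genes moved together. Each sequence runs from 250 bases before to 50 bases after the annotated start, 5′ to 3′, from RefSeq on GRCm38.p6, with capitals for matches on either strand to TATAAA (the TATA box), CTTTGA (the core bound by LEF and TCF factors) and TGTGGT (the core bound by RUNX factors). Krtap11-1, chr16:89571134-89571433 (minus strand), and Krtap16-3, chr16:88962824-88963123 (minus strand), encode matrix proteins of hair and nail, and Krt31, chr11:100050502-100050801 (minus strand), a hard keratin. Krt10, chr11:99389315-99389614 (minus strand), a keratin of the upper epidermis that fell, and Bglap, chr3:88384417-88384716 (minus strand), the bone gene described above, are given for contrast.
Krtap11-1: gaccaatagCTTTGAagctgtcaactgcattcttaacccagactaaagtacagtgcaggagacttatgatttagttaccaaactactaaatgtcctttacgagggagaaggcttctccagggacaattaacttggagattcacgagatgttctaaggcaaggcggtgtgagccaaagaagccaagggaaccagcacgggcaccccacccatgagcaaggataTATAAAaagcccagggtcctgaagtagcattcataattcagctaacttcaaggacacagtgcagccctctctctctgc
Krtap16-3: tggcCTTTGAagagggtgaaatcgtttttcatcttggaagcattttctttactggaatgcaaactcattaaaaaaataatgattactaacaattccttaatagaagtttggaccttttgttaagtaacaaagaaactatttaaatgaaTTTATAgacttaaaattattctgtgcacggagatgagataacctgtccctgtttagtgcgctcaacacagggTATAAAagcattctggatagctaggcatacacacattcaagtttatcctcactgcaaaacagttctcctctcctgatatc
Krt31: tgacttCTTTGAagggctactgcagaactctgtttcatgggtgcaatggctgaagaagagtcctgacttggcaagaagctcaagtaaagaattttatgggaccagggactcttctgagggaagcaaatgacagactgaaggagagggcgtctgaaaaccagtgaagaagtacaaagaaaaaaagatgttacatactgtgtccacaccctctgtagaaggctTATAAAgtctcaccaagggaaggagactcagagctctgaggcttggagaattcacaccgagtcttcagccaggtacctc
Krt10: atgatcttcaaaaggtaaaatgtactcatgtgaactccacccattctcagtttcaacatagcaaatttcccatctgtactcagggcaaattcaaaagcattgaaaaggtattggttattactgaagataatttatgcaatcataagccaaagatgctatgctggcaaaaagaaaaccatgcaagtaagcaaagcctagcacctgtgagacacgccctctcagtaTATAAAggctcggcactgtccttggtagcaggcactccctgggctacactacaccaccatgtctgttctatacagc
Bglap: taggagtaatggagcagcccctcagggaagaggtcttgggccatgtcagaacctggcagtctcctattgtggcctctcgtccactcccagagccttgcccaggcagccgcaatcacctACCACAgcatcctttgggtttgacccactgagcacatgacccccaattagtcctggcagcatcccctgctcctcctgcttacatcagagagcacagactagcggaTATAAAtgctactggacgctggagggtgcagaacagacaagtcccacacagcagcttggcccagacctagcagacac

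All 5 promoters shown held TATAAA 26 to 30 bases before the start. The promoter of Phex, an osteoblast list gene that rose, was searched as well and held 0 matches. Krtap11-1, Krtap16-3 and Krt31 also held CTTTGA, 241 to 246 bases before the start, and Bglap held ACCACA, the reverse complement of TGTGGT, 132 bases before it. TATAAA was found in 31 of 34 keratin-associated protein promoters in the reference table (91.2%), in 6 of 11 hard keratin and nail matrix promoters (54.5%) and in 14.2% of all 27025 promoters. CTTTGA was found in 35.3% of keratin-associated protein promoters and 45.5% of hard keratin and nail matrix promoters, against 16.2% of all. Other lists held these letters too, with TATAAA in 8 of 14 epidermal (57.1%), 3 of 4 bone matrix (75%) and 0 of 7 osteoblast promoters, and CTTTGA in 28.6%, 0% and 42.9% of them. TGTGGT was found in 29.4% of keratin-associated protein, 0% of hard keratin and nail matrix, 50% of bone matrix and 14.3% of osteoblast promoters. It was found in 7.14% of epidermal promoters and 16.9% of all. Among the 10756 promoters of genes in the deposited table the shares were lower, 7.75% for TATAAA, 12.1% for CTTTGA and 12.1% for TGTGGT. No match of one motif overlapped a match of another in these windows. Keratin-associated protein genes are neighbours and close relatives, so their promoters are not independent of each other, and a match says only that the letters are present.

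Hard keratins and their regulators were higher in distal 14-day tips, with 83.3% of the list called against 24.5% of all genes. Of 18 measured hard keratin and nail matrix genes, 15 rose and 0 fell, with a median log2 difference of 3.63 over all 18. They were the hard keratins Krt31, Krt32, Krt33a, Krt33b, Krt34, Krt35, Krt81, Krt83 and Krt86, the receptor-like Gprc5d of hard-keratinizing cells, and the transcription factors Lef1, Msx2, Hoxc13, Foxn1 and Dlx3 that act in nail and hair matrix. Krt36, Tchh and Krt84 were not called. Hard keratins share sequence, so reads of one may have been counted for another.

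Krt33a, a type I hard keratin on chromosome 11 (100011195 to 100016212, minus strand, GRCm38), had the largest rise of all called genes that met the naming rule. Krt33a had values of 4502, 17333, 12859 and 19791 in the distal 14-day libraries, against 905, 167, 78 and 78 in the proximal 12-day libraries. As the naming rule needs, every distal 14-day library exceeded every proximal 12-day library, and replicate 1 was the highest proximal one by a wide margin. The difference was 6.08 ± 0.71 (SE, adjusted p = 3.25e-06). Gprc5d had values of 1578, 5720, 3618 and 3320 in the distal 14-day libraries, against 225, 49, 24 and 24 in the proximal 12-day libraries. Gprc5d showed the same order of libraries, with a difference of 5.97 ± 0.64 (SE, adjusted p = 1.42e-06). Krt31 had values of 28688, 48984, 32828 and 52067 in the distal 14-day libraries, against 9406, 2289, 1966 and 3911 in the proximal 12-day libraries, and its difference was 3.46 ± 0.41 (SE, adjusted p = 3.93e-06).

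Krt42 on chromosome 11, a type I keratin known from mouse nail, and Krt90 on chromosome 15, a type II keratin, rose with them. Krt42 had values of 62498, 88768, 149716 and 152047 in the distal 14-day libraries, against 12254, 3667, 4516 and 3385 in the proximal 12-day libraries. Krt90 had values of 66938, 110209, 130759 and 155618 in the distal 14-day libraries, against 10362, 5411, 3879 and 4886 in the proximal 12-day libraries. The differences were 4.37 ± 0.40 (SE, adjusted p = 1.91e-07) for Krt42 and 4.28 ± 0.34 (SE, adjusted p = 3.89e-08) for Krt90. The pair was not in the nail list and was named by the size of the rise among called genes without overlap. Its lack of overlap was thus set by the rule.

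Keratin-associated proteins, the matrix in which hard keratin filaments are embedded, followed, with 94.7% called against 24.5% of all genes. Of 38 measured genes, 36 rose and 0 fell, with a median of 3.05 over all 38, and the rises of the 36 ran from 1.85 to 4.88. Krtap11-1 had values of 12514, 24716, 16822 and 29206 in the distal 14-day libraries, against 3296, 901, 351 and 736 in the proximal 12-day libraries, a difference of 4.40 ± 0.50 (SE, adjusted p = 2.71e-06). Krtap16-3 had values of 1630, 6705, 5028 and 4913 in the distal 14-day libraries, against 663, 181, 83 and 34 in the proximal 12-day libraries, a difference of 4.88 ± 0.78 (SE, adjusted p = 8.19e-05). In both, the distal 14-day libraries were all above the proximal 12-day libraries, as the naming rule needs. Krtap1-3 and Krtap9-1 differed by 4.45 and 4.75. The 3 predicted protein-coding genes beside Krtap9-1 on chromosome 11, Gm11559, Gm11567 and Gm11568, differed by 4.88, 4.58 and 4.39, without overlap as the naming rule needs. Gm11571 (4.88) is annotated as antisense beside Krt31, and without a stated strand setting its reads cannot be told from those of the hard keratin genes it overlaps.

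Proximal 12 days was the group that stood apart on both lists. Mean log2 deviations of the hard keratin and nail list were 0.72 in distal 14-day libraries and -2.25 in proximal 12-day libraries, whereas distal 12, distal 21, proximal 14 and proximal 21 days lay at 0.36, 1.13, 0.41 and -0.36. For keratin-associated proteins the values were 0.32 in distal 14-day and -2.66 in proximal 12-day libraries, with the other 4 groups between -0.07 and 1.42. Proximal 12-day replicate 1 lay at -1.09 and -1.07 on the lists, and the other 3 proximal 12-day libraries between -3.41 and -2.43. Without that library, 15 and 36 genes rose and the medians were 4.12 and 3.54.

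**Figure D2:**
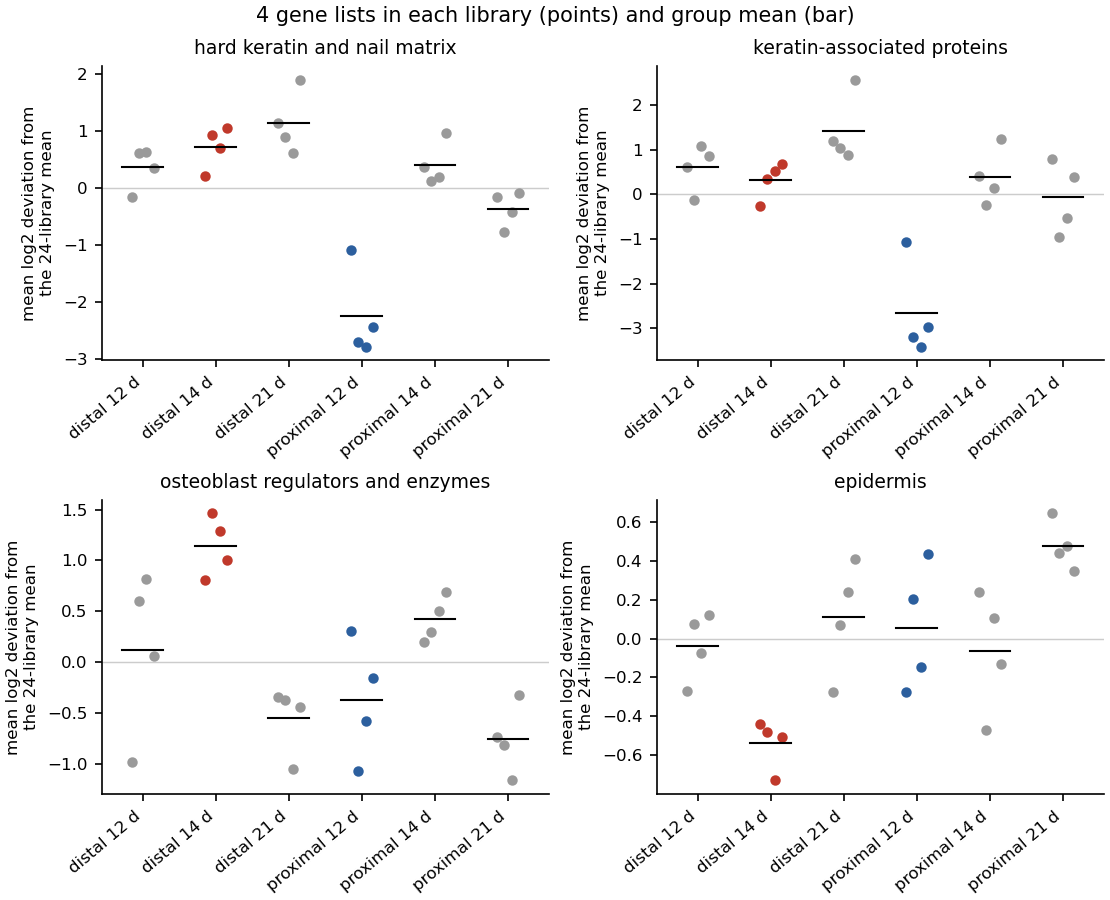
Mean log2 deviation of 4 gene lists from the 24-library mean (vertical axis) in each library (points) of the 6 groups (horizontal axis), with group means as bars; distal 14 days in red, proximal 12 days in blue. Proximal 12 days was the low group for both nail lists (-2.25 and -2.66), while distal 14 days was the high group for osteoblast genes (1.14) and the low group for epidermis (-0.54).

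Osteoblast regulators and enzymes, none of which chose the groups, were higher in distal 14-day tips. Of 11 measured genes 9 rose and 0 fell (81.8% called, against 24.5% of all genes), with a median of 1.503. Runx2 and Sp7 are the transcription factors that commit cells to the osteoblast lineage, Alpl and Phospho1 are enzymes of mineralization, and Phex and Sost are made largely by osteocytes. Pth1r and Smpd3 were not called.

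Phex had values of 530, 671, 504 and 468 in the distal 14-day libraries, against 39, 33, 38 and 81 in the proximal 12-day libraries. Phex, an X-linked endopeptidase that governs phosphate handling and mineralization, was far apart between the groups, by 3.56 ± 0.55 (SE, adjusted p = 6.36e-05). Runx2 had values of 928, 1365, 1123 and 874 in the distal 14-day libraries, against 787, 312, 449 and 459 in the proximal 12-day libraries, a difference of 1.15 ± 0.25 (SE, adjusted p = 0.00176). The groups did not overlap for Runx2 either, although proximal 12-day replicate 1 came close to the lowest distal 14-day value. Leaving out single libraries gave 6 to 10 rises in the list, and 10 without proximal 12-day replicate 1.

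Distal 14 days was the highest of the 6 groups for this list, with a mean log2 deviation of 1.14 (0.81 to 1.46), and proximal 12 days lay at -0.37 (-1.07 to 0.31). Proximal 14 days came next to distal 14 days, at 0.42 (0.20 to 0.69). Distal 12, distal 21 and proximal 21 days lay at 0.12, -0.55 and -0.76. Few osteoclast genes were called, 7.14% against 24.5% of all genes. Of 14 measured osteoclast genes 1 rose, Car2, the carbonic anhydrase that supplies acid for bone resorption, and 0 fell, and their summed values ran from 15542 to 33265 in distal 14-day and from 11628 to 66804 in proximal 12-day libraries. Without proximal 12-day replicate 1, which held the highest sum, 2 rose and the median difference was 0.49 in place of 0.08. Acp5 had values of 1251, 3724, 2669 and 3422 in the distal 14-day libraries, against 7558, 903, 1688 and 2252 in the proximal 12-day libraries. The highest value of Acp5, the acid phosphatase of osteoclasts, was in proximal 12-day replicate 1, and its difference of 0.18 ± 0.48 (SE, adjusted p = 0.832) was not called.

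Regulators of chondrocytes were split, and 42.9% of them were called, against 24.5% of all genes. Sox9, the factor that starts cartilage formation and also acts in hair and nail epithelium, differed by 0.87 ± 0.24 (SE, adjusted p = 0.011). Fgfr3, a receptor that restrains growth plate cartilage and is also made by epidermis, differed by -0.77 ± 0.12 (SE, adjusted p = 8.07e-05). Their 4 values did not overlap between groups. Of the 7 chondrocyte regulators measured, 2 rose, Sox9 and Trps1, and 1 fell, Fgfr3, and the rise of Trps1 (0.30) was lost when libraries were scaled to table totals (adjusted p = 0.0948).

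**Figure D3:**
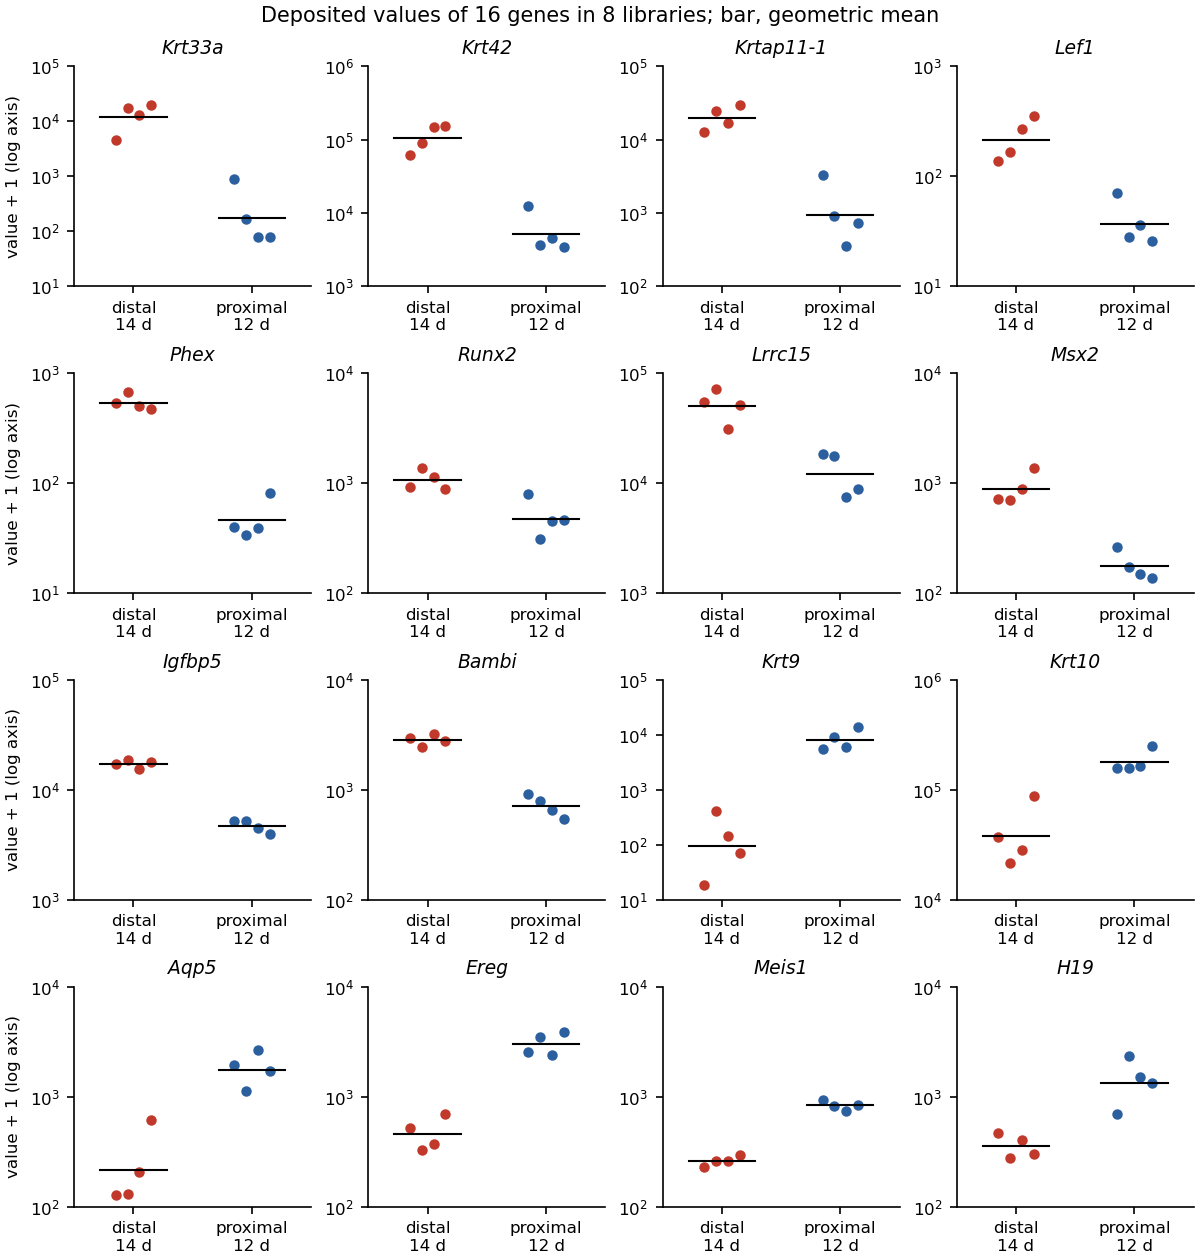
Deposited values plus 1 (vertical axis, log scale) of 16 genes in the distal 14-day libraries (red, left) and the proximal 12-day libraries (blue, right), with the geometric mean as a bar. The groups do not overlap in any of the 16, but for several of them, such as Krt33a and Krt9, the naming rule needed this. Proximal 12-day replicate 1, the leftmost blue point, is the highest of its group for Krt33a (905), Krt42 (12254) and Lef1 (70).

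Of 22 measured epidermal genes 10 fell and 1 rose in distal 14-day tips (50% called, against 24.5% of all genes), with a median of -0.47 and a positive difference for 7. The 10 were the suprabasal keratins Krt1, Krt2 and Krt10, the cornified envelope and filaggrin genes Lor, Ivl and Flg, the transglutaminase Tgm1, and the junction genes Cdsn, Dsc1 and Dsg1a. The one that rose was Krt6a, a keratin of wound edge and nail bed, and that call was lost without distal 14-day replicate 2 or proximal 12-day replicate 3, each of which left 0 rises in the list. The rises numbered 4 without distal 14-day replicate 4, 3 without proximal 12-day replicate 4 and 2 with median-ratio factors. The envelope genes Flg2 (-1.14), Sprr2d (-0.52), Sprr1b (-0.28), Tgm3 (-0.13) and Sprr1a (1.03) were not called.

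Krt2 had values of 44673, 34120, 51857 and 123026 in the distal 14-day libraries, against 401407, 367566, 389544 and 252746 in the proximal 12-day libraries. Krt2, a keratin of the upper epidermis, was lower in all distal 14-day libraries, by -2.64 ± 0.41 (SE, adjusted p = 6.59e-05). Krt10 had values of 37522, 21737, 28519 and 88185 in the distal 14-day libraries, against 157306, 157996, 164215 and 252090 in the proximal 12-day libraries. Krt10, the main suprabasal type I keratin, differed by -2.24 ± 0.34 (SE, adjusted p = 5.49e-05), with distal 14-day replicate 4 the closest to the proximal libraries. Krt14 had values of 88329, 131126, 97421 and 87291 in the distal 14-day libraries, against 91334, 111445, 74526 and 126321 in the proximal 12-day libraries. The basal keratin Krt14 overlapped and its difference of 0.01 ± 0.22 (SE, adjusted p = 0.981) was not called.

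Krt9 had the largest fall of the named genes. Krt9 had values of 18, 407, 142 and 69 in the distal 14-day libraries, against 5572, 9242, 5970 and 13983 in the proximal 12-day libraries. Krt9 is the keratin of palm, sole and footpad epidermis. As the naming rule needs, every proximal 12-day value was above every distal 14-day value, and the difference was -6.43 ± 1.38 (SE, adjusted p = 0.00157). Aqp5 had values of 126, 130, 207 and 611 in the distal 14-day libraries, against 1935, 1120, 2647 and 1711 in the proximal 12-day libraries. Aquaporin 5, a water channel of sweat glands, differed by -3.05 ± 0.46 (SE, adjusted p = 4.89e-05). It was the 1 called gene of 5 measured simple epithelium and sweat gland genes (20% called, near the 24.5% of all genes). Their summed values, which include Aqp5, ran from 563 to 1355 in distal 14-day and from 1494 to 3565 in proximal 12-day libraries. Mean log2 deviations of that list overlapped, at -1.50 to 0.97 in distal 14-day and -0.70 to 1.61 in proximal 12-day libraries. The part of that list in the fall of Krt9 was not tested.

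Hrnr had values of 6959, 4757, 10907 and 32921 in the distal 14-day libraries, against 72272, 59291, 78449 and 69230 in the proximal 12-day libraries. Hornerin, a relative of filaggrin, fell by 2.73 ± 0.46 (SE, adjusted p = 0.000159). Ereg had values of 521, 326, 372 and 693 in the distal 14-day libraries, against 2553, 3475, 2388 and 3907 in the proximal 12-day libraries. Epiregulin, a growth factor that binds the EGF receptor, fell by 2.72 ± 0.26 (SE, adjusted p = 3.38e-07). Neither overlapped between the groups, which the naming rule needs. Other large falls were Oas1f (-4.04), BC100530 (-2.97), Sec14l4 (-2.79), 4930438A08Rik (-2.76), Tprg (-2.62) and Wfdc17 (-2.61).

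In contrast to the nail lists, it was distal 14 days that stood lowest for the epidermal list. Its mean log2 deviation was -0.54 (-0.73 to -0.44), and proximal 12 days lay at 0.05 (-0.28 to 0.44), while the other 4 groups lay between -0.06 and 0.48. Summed values of the list were 442082 to 602066 in distal 14-day and 951718 to 1280175 in proximal 12-day libraries. Without proximal 12-day replicate 1, 9 genes fell.

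Transcription factors of limb pattern moved in both directions. Of 24 measured, 11 rose and 3 fell (58.3% called, against 24.5% of all genes), with a median of 0.52. Those that rose were Msx2, Msx1, Dlx5, Dlx6, Alx4, Tbx2, Hoxd11, Hoxd13, En1, Pitx1 and Prrx1, and those that fell were Meis1, Meis2 and Tbx3. Meis proteins mark the proximal segment of the embryonic limb, and Hoxd13 and Msx genes its distal end, as background from mouse embryos. Without proximal 12-day replicate 1, 9 rose and 3 fell.

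Meis1 had values of 228, 259, 258 and 295 in the distal 14-day libraries, against 938, 828, 747 and 847 in the proximal 12-day libraries. Dlx6 had values of 232, 260, 237 and 279 in the distal 14-day libraries, against 88, 62, 71 and 65 in the proximal 12-day libraries. Meis1 was lower and Dlx6 higher in every distal 14-day library, by -1.69 ± 0.14 (SE, adjusted p = 4.4e-08) and 1.81 ± 0.15 (SE, adjusted p = 4.37e-08). Msx2 had values of 711, 694, 879 and 1371 in the distal 14-day libraries, against 261, 173, 148 and 136 in the proximal 12-day libraries. Msx2, which acts in nail epithelium and in the bone-forming mesenchyme of the digit tip, differed by 2.33 ± 0.27 (SE, adjusted p = 3.25e-06). Msx1, its relative that digit tip regeneration in fetal mice requires, differed by 0.71 ± 0.23 (SE, adjusted p = 0.0299). That call was lost without distal 14-day replicate 3 (adjusted p = 0.0685) or 4 (0.058), and without proximal 12-day replicate 1 (0.0723), 2 (0.0772) or 4 (0.0621), by limma.

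BMP signalling instructs bone formation in the digit tip, and of 26 measured genes 11 rose and 2 fell (median 0.33). That was 50% called, against 24.5% of all genes. The ligands Bmp2, Bmp3, Bmp4 and Bmp5 rose, and so did the inhibitors Nog, Fst, Bambi, Smad6 and Smad7, the transducer Smad9 and the target Id2. Chrdl1, an antagonist, and the receptor Bmpr1a fell, and those falls numbered 0 or 1 without any 1 of distal 14-day replicates 2, 3 or 4 or proximal 12-day replicates 2, 3 or 4. Bambi had values of 2959, 2458, 3248 and 2786 in the distal 14-day libraries, against 927, 792, 655 and 547 in the proximal 12-day libraries. Bambi, a pseudoreceptor, was apart by 1.99 ± 0.18 (SE, adjusted p = 1.34e-07). Nog had values of 149, 115, 125 and 123 in the distal 14-day libraries, against 44, 41, 51 and 60 in the proximal 12-day libraries. Noggin, which binds BMP ligands, was apart by 1.38 ± 0.18 (SE, adjusted p = 1.1e-05), and Smad6, which blocks the signal inside the cell, by 0.92 ± 0.10 (SE, adjusted p = 1.91e-06).

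In the Wnt pathway 8 of 31 measured genes rose and 1 fell (median 0.24), so that 29.0% were called, near the 24.5% of all genes. Lef1 had values of 136, 166, 265 and 349 in the distal 14-day libraries, against 70, 27, 35 and 25 in the proximal 12-day libraries. Tcf7 had values of 960, 1057, 1099 and 1107 in the distal 14-day libraries, against 378, 323, 268 and 282 in the proximal 12-day libraries. LEF1 and TCF7 are DNA-binding partners of beta-catenin, and they were higher in every distal 14-day library, by 2.54 ± 0.44 (SE, adjusted p = 0.000187) and 1.76 ± 0.16 (SE, adjusted p = 2.48e-07). Lgr4, a receptor for R-spondins, differed by 0.85 ± 0.11 (SE, adjusted p = 1.08e-05). The target gene Axin2 was not called (-0.38). The gene that fell was Wnt4, and the falls numbered 2 or 3 without distal 14-day replicate 3 or proximal 12-day replicate 2.

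Of the IGF axis, 6 of 16 measured genes rose and 3 fell (56.2% called, against 24.5% of all genes). Igfbp5 had values of 17107, 18825, 15650 and 17933 in the distal 14-day libraries, against 5227, 5259, 4498 and 3960 in the proximal 12-day libraries. Igfbp5, a secreted IGF-binding protein made by osteoblasts and connective tissue, was higher by 1.88 ± 0.15 (SE, adjusted p = 3.51e-08), with no overlap. The receptor Igf1r differed by 0.59 ± 0.07 (SE, adjusted p = 4.85e-06), and Stc1, which inhibits the protease that frees IGF from its binding proteins, by 1.32 ± 0.16 (SE, adjusted p = 5.25e-06). Among 11 hedgehog genes 4 rose and 1 fell (45.5% called). Ptch1, the receptor and a target of the pathway, differed by 0.68 ± 0.14 (SE, adjusted p = 0.000911) and the co-receptor Cdon by -0.62 ± 0.15 (SE, adjusted p = 0.00314). The rise of Gli3 (0.40) was lost without proximal 12-day replicate 3 (adjusted p = 0.0613), and the falls then numbered 2, as they did without distal 14-day replicate 4.

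TGF-beta genes were divided, with 5 rises and 4 falls among 17 (52.9% called, against 24.5% of all genes). Rises numbered 3 without distal 14-day replicate 4. Ctgf had values of 1915, 2508, 1938 and 2085 in the distal 14-day libraries, against 1154, 822, 853 and 938 in the proximal 12-day libraries. Ctgf, a secreted target of TGF-beta and mechanical signals, was higher by 1.17 ± 0.19 (SE, adjusted p = 8.07e-05). Ltbp1, which anchors latent TGF-beta in the matrix, differed by 0.67 ± 0.08 (SE, adjusted p = 6.6e-06), and Ltbp2, a relative that does not bind it, by -0.94 ± 0.16 (SE, adjusted p = 0.000201). The groups were apart for all 3 genes.

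Of 14 markers of fibroblast states, 4 fell and 1 rose (35.7% called, against 24.5% of all genes). Lrrc15 had values of 54090, 71096, 31181 and 51635 in the distal 14-day libraries, against 18289, 17753, 7438 and 8835 in the proximal 12-day libraries. Lrrc15, a membrane protein of TGF-beta-activated fibroblasts and of osteoblasts, was higher by 2.05 ± 0.34 (SE, adjusted p = 0.000118). Pamr1 had values of 136, 89, 97 and 99 in the distal 14-day libraries, against 324, 359, 471 and 478 in the proximal 12-day libraries. Pamr1, a secreted protein of fibroblasts, differed by -1.94 ± 0.29 (SE, adjusted p = 4.72e-05), and Twist2, a dermal transcription factor, by -1.81 ± 0.36 (SE, adjusted p = 0.000825). Mmp11 had values of 58, 75, 86 and 74 in the distal 14-day libraries, against 257, 312, 313 and 468 in the proximal 12-day libraries. Mmp11, a stromal metalloproteinase, differed by -2.17 ± 0.34 (SE, adjusted p = 8.23e-05), without overlap. Of 21 proteases and inhibitors measured, 23.8% were called, near the 24.5% of all genes. Mmp11 was 1 of 3 that fell, and 2 rose. Those rises numbered 0 without distal 14-day replicate 2 or proximal 12-day replicate 2, 1 without distal 14-day replicate 3 or proximal 12-day replicate 4, and 4 without distal 14-day replicate 1.

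**Figure D4:**
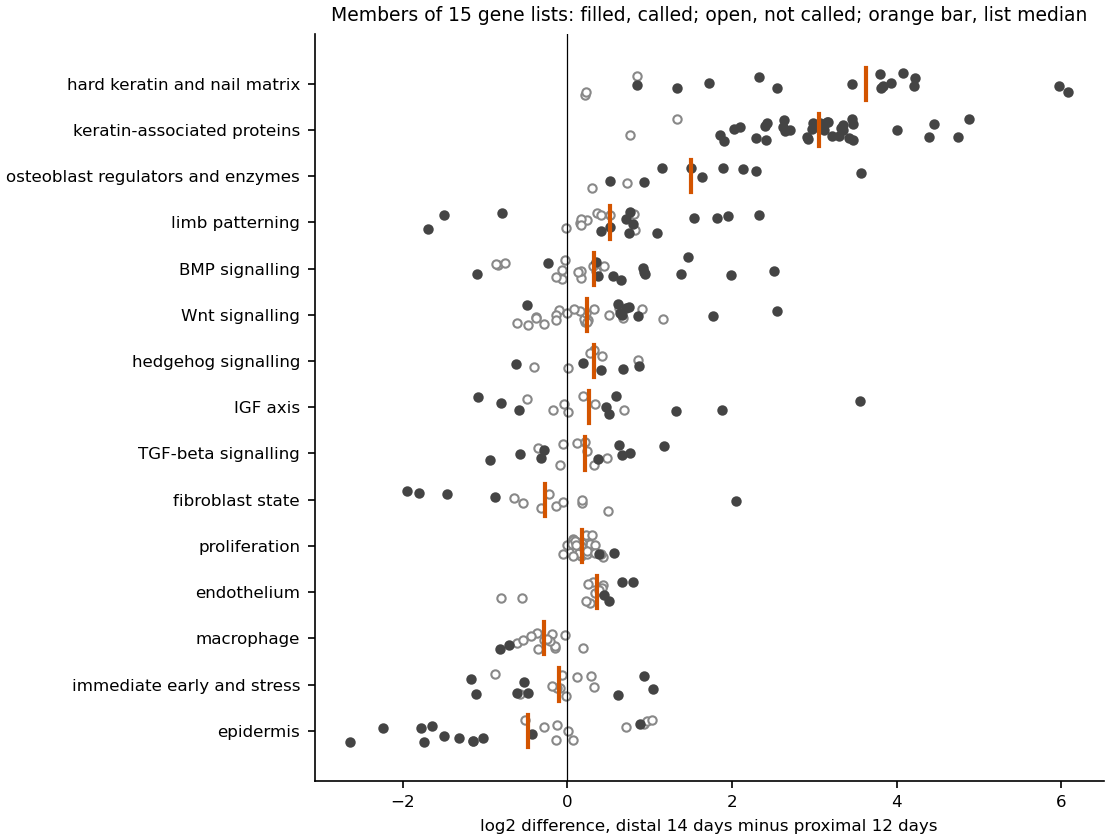
Log2 difference, distal 14 minus proximal 12 days (horizontal axis), of each measured member of 15 gene lists (rows), filled where called and open where not, with the list median as an orange bar. The nail lists stand at medians of 3.63 and 3.05 and osteoblast genes at 1.503, while epidermis, at the bottom, has a median of -0.47.

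Few genes of dividing cells were called, 7.69% against 24.5% of all genes. Of 26 measured, 24 had a positive difference, but 2 were called higher, Rrm2 and Ube2c, and 0 lower, with a median of 0.17. Mki67 had values of 4749, 5412, 4314 and 4182 in the distal 14-day libraries, against 3973, 4091, 3204 and 4221 in the proximal 12-day libraries. Mki67, the proliferation antigen Ki-67, overlapped and was not called (0.27 ± 0.13 (SE, adjusted p = 0.155)). The calls of Rrm2 and Ube2c were both lost without distal 14-day replicate 1, 2 or 4 or proximal 12-day replicate 2 or 3, and that of Ube2c also without distal 14-day replicate 3 or proximal 12-day replicate 4. Without distal 14-day replicate 4, 1 other gene of the list was called higher.

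Of markers of other cell types, 13.3% of macrophage, 28.6% of endothelial and 8.33% of Schwann cell and nerve genes were called, against 24.5% of all genes. Of 15 macrophage genes 2 fell, Lyz2 (-0.82 ± 0.20 (SE, adjusted p = 0.00459)) and Trem2 (-0.71 ± 0.25 (SE, adjusted p = 0.0424)), and 0 rose. The call of Trem2 was lost without distal 14-day replicate 2, 3 or 4 or proximal 12-day replicate 3 or 4, which left 1. Summed macrophage values were 5462 to 8319 in distal 14-day and 8396 to 13830 in proximal 12-day libraries. Such sums weigh the most abundant genes most. The mean log2 deviation of the macrophage list overlapped, at -0.18 to 0.64 in distal 14-day and 0.165 to 0.86 in proximal 12-day libraries. Of 14 endothelial genes 4 rose and 0 fell. They numbered 2 without distal 14-day replicate 1, 2 or 4 or proximal 12-day replicate 2, and 8 without distal 14-day replicate 3, and 2 fell without proximal 12-day replicate 1. Erbb3, a receptor of Schwann cells that epidermis also makes, differed by -0.88 ± 0.12 (SE, adjusted p = 1.69e-05), and was the 1 gene called of 12 in its list. None of the 6 erythroid, 2 lymphocyte or 5 skeletal muscle genes measured was called by limma, and summed erythroid values ran from 484 to 13260 in distal 14-day and from 207 to 14758 in proximal 12-day libraries.

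Early response and imprinted genes gave mixed results. Of 18 immediate early and stress genes 5 fell and 3 rose (44.4% called, against 24.5% of all genes). Ier3 had values of 541, 501, 495 and 562 in the distal 14-day libraries, against 721, 818, 766 and 904 in the proximal 12-day libraries. Ier3, an early response gene linked to cell survival, differed by -0.61 ± 0.08 (SE, adjusted p = 9.56e-06), and the antiproliferative gene Btg2 by -1.11 ± 0.15 (SE, adjusted p = 1.67e-05). Of 12 imprinted growth genes, which are expressed from 1 parental copy, 3 fell and 2 rose (41.7% called). H19 had values of 470, 275, 400 and 300 in the distal 14-day libraries, against 704, 2354, 1499 and 1331 in the proximal 12-day libraries. H19, a long noncoding RNA, was lower in all 4 distal 14-day libraries, by -1.93 ± 0.34 (SE, adjusted p = 0.000227). Rian, another noncoding RNA, differed by -1.25 ± 0.24 (SE, adjusted p = 0.000631), and Grb10, an inhibitor of growth factor receptors, was higher by 0.50 ± 0.12 (SE, adjusted p = 0.00545).

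With the days exchanged, fewer genes were called. Between distal 12 and proximal 14 days, 1678 genes were called (11.1%), 669 higher (4.44%) and 1009 lower (6.7%) in distal 12-day libraries, and 617 higher and 607 lower under table totals. Of the 3681 genes called between distal 14 and proximal 12 days, 3189 (86.6%) were not called in the crossed comparison. The same direction in both was found for 173 genes, 4.7% of the first list and 10.3% of the second, 80 higher and 93 lower in distal libraries. Opposite directions were found for 319 genes, 8.67% and 19% of the lists, of which 153 were higher in distal 14-day and lower in distal 12-day libraries. No test was made of these overlaps, and their counts include matrix genes. Without proximal 14-day replicate 3 the crossed calls numbered 960, those in the same direction 110 and those in opposite directions 198. Opposite directions were found for 209 genes without distal 12-day replicate 4 and for 202 without proximal 14-day replicate 4. With only the groups compared in each fit, the opposite genes numbered 193 and the crossed calls 939.

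The nail lists were hardly called in the crossed comparison, and the difference between the comparisons was not tested. Of the 18 hard keratin and nail genes 0 were called between distal 12 and proximal 14 days in either direction, and of the 38 keratin-associated protein genes 1 was higher and 0 lower. Krt33a had 1821, 8153, 8477 and 3612 in the distal 12-day libraries, against 1224, 2858, 2161 and 10116 in the proximal 14-day libraries. These libraries overlapped, with a difference of 0.64 ± 0.71 (SE, adjusted p = 0.612), which was not called. The osteoblast list had 0 rises and 1 fall (9.09% called), and the epidermal list 0 calls in either direction. Only 11.1% of all genes were called in the crossed comparison, so a lack of calls in a short list does not show that a difference was absent. Matrix genes, described without a test, were lower in distal 12-day libraries, with a median difference of -0.79 over the 89 genes.

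**Figure D5:**
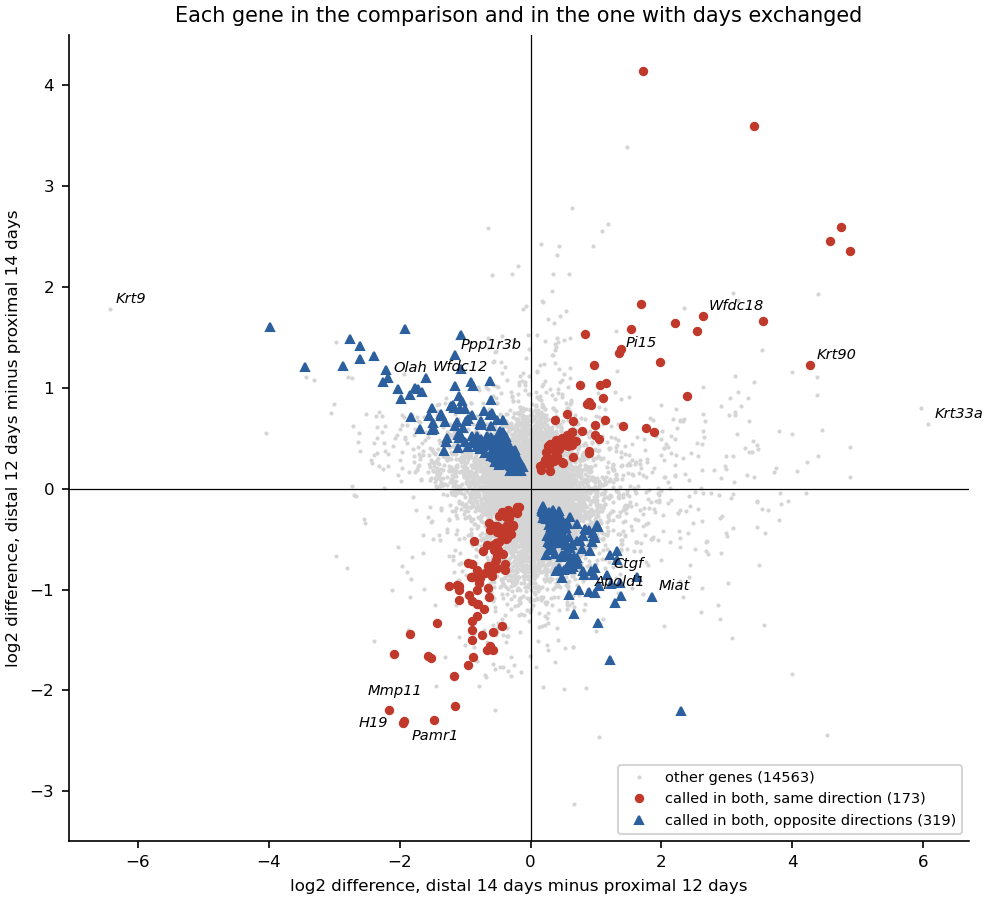
Log2 difference of each of 15055 genes between distal 14 and proximal 12 days (horizontal axis) and between distal 12 and proximal 14 days (vertical axis). Red points are the 173 genes called in the same direction in both and blue triangles the 319 called in opposite directions; Krt33a and Krt9 lie far out on the horizontal axis without a call on the vertical one.

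Genes that kept their direction with the level included a small set outside the lists. Wfdc18 had values of 2651, 4232, 3869 and 3006 in the distal 14-day libraries, against 496, 593, 383 and 786 in the proximal 12-day libraries. Wfdc18 had 1930, 2017, 2668 and 2488 in the distal 12-day libraries, against 477, 729, 677 and 959 in the proximal 14-day libraries. Wfdc18, a small secreted protein of the whey acidic protein family, was higher in distal tips in both comparisons, by 2.63 ± 0.24 (SE, adjusted p = 1.77e-07) and 1.71 ± 0.24 (SE, adjusted p = 8.87e-05). The rule that named it needs a call and no overlap in both. Krt90, Il12rb2, a chain of the interleukin 12 receptor, Dsc2, a desmosomal cadherin, Cbr2, a carbonyl reductase, and Pi15, a peptidase inhibitor, were also higher in both, with crossed differences of 1.23, 1.26, 1.05, 1.03 and 1.34. The crossed call was lost without proximal 14-day replicate 3 for Krt90 (adjusted p = 0.0629), Dsc2 (0.0536) and Pi15 (0.157), and without several other libraries for Krt90 and Pi15. The first call of Pi15 was lost without distal 14-day replicate 1 (adjusted p = 0.0735).

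Lower in distal libraries of both comparisons were Pamr1, Mmp11, H19 and C1qtnf3. The matrix genes Cilp and Matn4 passed the same rule, which needs a call and no overlap in both comparisons. Because matrix genes chose the groups, those calls are not used as support. Pamr1 had 74, 47, 42 and 39 in the distal 12-day libraries, against 213, 341, 316 and 168 in the proximal 14-day libraries. Mmp11 had 32, 30, 60 and 36 in the distal 12-day libraries, against 217, 225, 157 and 128 in the proximal 14-day libraries. H19 had 322, 196, 171 and 188 in the distal 12-day libraries, against 877, 1262, 1523 and 717 in the proximal 14-day libraries. Crossed differences were -2.33 ± 0.29 (SE, adjusted p = 2.74e-05) for Pamr1, -2.19 ± 0.34 (SE, adjusted p = 0.000311) for Mmp11 and -2.30 ± 0.34 (SE, adjusted p = 0.000158) for H19. Their calls and lack of overlap in both comparisons were conditions of the rule that named them. C1qtnf3, a secreted protein of the C1q and tumour necrosis factor family, differed by -1.47 ± 0.32 (SE, adjusted p = 0.0019) and -2.29 ± 0.32 (SE, adjusted p = 0.000103).

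Genes that turned with the day were of other kinds. Ctgf had 910, 804, 717 and 996 in the distal 12-day libraries, against 1578, 1537, 1712 and 1338 in the proximal 14-day libraries. Ctgf was thus higher at 14 than at 12 days in each of these pairs, whichever level was at 14 days, with a crossed difference of -0.85 ± 0.19 (SE, adjusted p = 0.00515). Miat, a long noncoding RNA, Ldb2, a cofactor of LIM transcription factors, Apold1, an endothelial early response gene, and Gucy1a3, a subunit of the nitric oxide receptor of smooth muscle, turned likewise, with differences of 1.86 and -1.07, 1.05 and -0.97, 0.89 and -1.03, and 0.97 and -0.86. Omd, a proteoglycan of bone, passed the same rule by its calls in both comparisons, but it is a matrix gene and is not used as support.

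In the other direction, Ppp1r3b had values of 131, 125, 133 and 174 in the distal 14-day libraries, against 331, 269, 296 and 366 in the proximal 12-day libraries. Ppp1r3b had 288, 310, 256 and 290 in the distal 12-day libraries, against 116, 117, 101 and 121 in the proximal 14-day libraries. Ppp1r3b, which directs a phosphatase to glycogen, was lower in distal 14-day and higher in distal 12-day libraries, by -1.16 ± 0.17 (SE, adjusted p = 3.65e-05) and 1.32 ± 0.17 (SE, adjusted p = 3.61e-05). Wfdc12, Olah, F3, Nat8l and 4930438A08Rik behaved alike, F3 being tissue factor, which starts blood clotting, and Olah a thioesterase of fatty acid synthesis. Their crossed differences were 1.10, 1.10, 1.06, 1.18 and 1.48. Only Nat8l and Ppp1r3b of these 6 kept the crossed call in every fit that left out 1 library.

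At 21 days, in libraries that neither comparison used, 2656 genes were called between distal and proximal tips (17.6%), 1237 higher (8.22%) and 1419 lower (9.43%). This split depended on the scale, with 627 higher and 3559 lower under table totals and 1579 higher and 1031 lower with median-ratio factors, and the overlaps below rest on the deposited scale. Of the genes higher in distal 14-day libraries, 636 were also higher in distal 21-day libraries, 35.7% of the first list and 51.4% of the second. Lower in both were 415 genes, 21.9% and 29.2%, and 37 and 30 genes went opposite ways. The hard keratin and nail list had 15 rises and 1 fall at 21 days and the keratin-associated list 18 and 1, while the osteoblast list had 0 and 0. Higher in distal libraries of all 3 comparisons were 29 genes, and lower in all 3 were 22.

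Named genes were followed to 21 days. Msx2 had 952, 958, 661 and 1356 in distal 21-day libraries, against 182, 172, 156 and 253 in proximal 21-day libraries. Msx2 was again apart, by 2.34 ± 0.27 (SE, adjusted p = 7.92e-06). Igfbp5, Bambi, Lrrc15 and Dlx6 were higher by 2.01, 2.15, 1.88 and 1.36, all called, and Pamr1 was lower, at -2.11. Phex had 82, 137, 91 and 67 in distal 21-day libraries, against 81, 41, 41 and 117 in proximal 21-day libraries. Phex was not called at 21 days (0.52 ± 0.55 (SE, adjusted p = 0.555)), nor was Krt9 (0.10 ± 1.38 (SE, adjusted p = 0.973)) or H19 (0.27 ± 0.34 (SE, adjusted p = 0.623)). Whether these differences changed between days was not tested.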

How the data were processed

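RNA was sequenced from 24 libraries in 6 groups of 4, and 8 of them make up the comparison. The submitters' processing notes name cutadapt, STAR 2.5.4b, featureCounts 1.6.3, Subread and the build mm10, without their roles. How the deposited values were scaled, the annotation and the strand setting are not given in the sources used here. The deposited values were treated as a score and not as read counts, since upper quartiles nearly agree between libraries and, over the 9650 genes above 100 in every library, the spread in the most stable direction was 6.71 times below that of counting error. P-values may therefore be too small.

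Values were compared as log2(value + 1) with limma 3.58.1 in R 4.3.3 (lmFit, eBayes with trend) over 6 group means and all 24 libraries, with Benjamini-Hochberg adjustment over 15055 genes, tested on simulated data. Genes were named by a rule: the 12 largest rises and falls, up to 3 called members of each list, a panel, 16 matrix genes, and the 6 largest of each kind in the crossed comparisons. The largest rises and falls were taken among called genes without overlap at a mean log2 value of at least 6. Genes of the crossed comparisons had to meet these conditions in both comparisons. The members and lists were chosen with earlier results of these data known, and list members named beyond the rule were chosen after their values were seen. One member of the osteoblast list is counted but not reported here by name. Gene coordinates are from GENCODE on GRCm38. Alternatives covered the scaling, the pseudocount (0.5 and 8), a mean value of at least 50, only the groups compared, array weights, a replicate block and leaving out each library.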

Additional observations from a re-analysis of the deposited data

Results flagged for a closer look

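A library far from the other 3 of its group was flagged by the gap to its nearest neighbour as a share of the group's range. Of 244 groups of 4 tested, over 122 named genes, 24 were flagged (9.84%). About 1 in 20 would be flagged among independent, normally distributed values. The rule was applied to unlogged values of genes that vary together, so the share cannot be read against that figure.

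Proximal 12-day replicate 1 was far above its group in nail genes and in Sox9. Its values were 905 for Krt33a (the others 78 to 167), 225 for Gprc5d (24 to 49), 12254 for Krt42 (3385 to 4516), 357 for Krtap1-4 (69 to 97), 62 for Gm11571 (5 to 7), 86 for Gm11559 (9 to 15), 90 for Gm11567 (12 to 19), 288 for Gm11568 (28 to 64) and 913 for Sox9 (617 to 652). All 9 genes stayed called without that library.

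Distal 14-day replicate 2 was far above its group in 3 mitochondrial genes, with 4998 for mt-Nd2, 7878 for mt-Nd5 and 1920 for mt-Nd6. Of 7 mitochondrial genes measured 5 were called higher (71.4% called, against 24.5% of all genes), and without that library 0 were. Without proximal 12-day replicate 1 or 3 the calls numbered 3 and 2.

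Distal 14-day replicate 4 was far above its group for Aqp5 at 611, Egr3 at 527, Erbb3 at 1709 and Ppp1r3b at 174. Proximal 12-day replicate 2 was far above its group for Col2a1 at 500, Cbr2 at 173 and Matn4 at 347, and replicate 4 for Phex at 81 and Krt10 at 252090. Distal 14-day replicate 3 was far above its group for Ltbp1 at 5234 and replicate 1 for Trem2 at 114. Proximal 12-day replicate 3 was far below its group for Cspg4 at 4179.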

How the results depend on the processing

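Of 100 called genes named for the comparison, 86 kept their direction and call under all 16 alternatives, 14 lost the call under at least 1 and 0 reversed. With table totals as the scale, 1074 genes were higher and 2210 lower in distal 14-day libraries, and 4186 were called at 21 days, where the median of all genes moved to -0.193. The calls of Trps1, Gli3, Rrm2, Ube2c, Tpi1 and Flt1 were lost under that scale. With only the groups compared in each fit, the crossed comparison had 939 calls, genes in opposite directions numbered 193, and the calls of Trem2 and S100a8 were lost. Leaving out 1 library gave 2810 to 3426 calls between distal 14 and proximal 12 days (1360 to 1654 higher and 1450 to 1802 lower), 960 to 1440 in the crossed comparison and 1827 to 2417 at 21 days. It gave 110 to 189 genes in the same direction, 198 to 298 in opposite directions, and 0.155 to 0.231 for the matrix difference. Median-ratio factors gave 1579 higher and 1031 lower at 21 days. Same-numbered libraries of the 2 groups did not deviate together (correlations of -0.457, -0.00887, -0.0693 and -0.151), and none of the 8 correlated best with its own number. A replicate block gave 3678 calls and lost the call of Ube2c. The depth is unknown, so no limit from counting can be given.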

Other observations

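Among lists not described above, glycolysis and hypoxia genes had 3 rises and 1 fall of 20 (20% called, near the 24.5% of all genes). The rises numbered 1 without any 1 of distal 14-day replicates 1 or 2 or proximal 12-day replicates 1 or 2. Ldha, lactate dehydrogenase, differed by 0.43 ± 0.11 (SE, adjusted p = 0.00749 by limma), and Ankrd37, a hypoxia target, by -0.78 ± 0.22 (adjusted p = 0.0115). Cspg4, a proteoglycan of pericytes, was the 1 gene called of 12 pericyte and smooth muscle genes, at 0.58 ± 0.15 (adjusted p = 0.00808). Mitf, the regulator of pigment cells that osteoclasts also use, was higher by 1.01 ± 0.24 (adjusted p = 0.00369), the 1 call of 2 melanocyte genes measured. Lipe, a lipase of fat cells, differed by -0.76 ± 0.19 (adjusted p = 0.00522), the 1 call of 6 adipocyte genes. In the pericyte, melanocyte and adipocyte lists 8.33%, 50% and 16.7% were called, against 24.5% of all genes.

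Of 4 neutrophil genes, 1 fell and 1 rose (50% called, against 24.5% of all genes). Cxcr2, the chemokine receptor of neutrophils, had 30, 20, 22 and 25 in distal 14-day libraries, against 97, 71, 106 and 109 in proximal 12-day libraries, and was called lower (-1.93 ± 0.25, adjusted p = 1.04e-05). S100a8, a calcium-binding protein of neutrophils and stressed epidermis, had 688, 4546, 1044 and 90 in distal 14-day libraries, against 152, 114, 47 and 212 in proximal 12-day libraries, and its groups overlapped. Its call (2.67 ± 0.95, adjusted p = 0.0443) was lost without 6 of the 8 libraries in turn and with only the groups compared.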
